A study of Mus musculus with 23 samples.

Results

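The genes described here encode ion channels and their subunits in A404 cells on their way to smooth muscle. They were chosen by name: every gene whose symbol, given alone by a probe, starts with Kcn, Cacn, Clcn, Trpc or Trpv, starts with Scn, Hcn or Trpm and a digit, or belongs to the Itpr or Ryr gene families. This gave 41 of the 8683 genes with a symbol on the array, measured by 53 probes. Potassium channels and their subunits made up 19 of them, calcium channels 9, CLC chloride channels and exchangers 6, TRP channels 5 and sodium channels 1. The remaining symbol, Kcnq1ot1, is a long non-coding RNA that the name rule caught and is treated apart. No gene of the Hcn family was among them. 6 further probes that carried such a symbol together with another were left out. Of the 41 genes, 33 rested on 1 probe, among them Kcnab1, Kcne1l and Kcns3, so agreement between probes could not be checked for those genes.

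A404 is a single clone derived from P19 mouse embryonal carcinoma cells. As background, it carries a puromycin resistance gene driven by the Acta2 promoter (Acta2 encodes smooth muscle alpha-actin), so puromycin spares cells in which that promoter is active. The series followed 1 protocol through 4 groups. Control cells (n = 6 arrays) were undifferentiated and were harvested near confluence at time 0. RA48 cells (n = 5) had been at about 30% confluence when they were put into 1 µmol/L all-trans retinoic acid, and had it for 48 h. RA96 cells (n = 6) were begun in the same way and had it for 96 h. Puromycin cells (n = 6) had 96 h in retinoic acid followed by 48 h in puromycin, with the starting density and the presence of retinoic acid in those last 48 h left unstated. Every array set RNA of 5 to 6 plates against a common pool of RNA from whole mouse embryos of day 17.5, and every value here is a log2 ratio, cell RNA over embryo RNA. Levels of different genes are therefore not comparable. The dyes give the direction of the ratio, and its centring is not stated, so a value of 0 stands for the level of the embryo pool only as far as those readings hold. Whether replicates were separate cultures is not given, and each p-value refers to the spread from array to array, part of which may be technical.

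Ion channels set the membrane potential and the calcium level of a cell. In smooth muscle, opening of voltage-gated L-type calcium channels lets in the calcium that triggers contraction, inositol trisphosphate and ryanodine receptors release more from internal stores, and potassium channels, among them inward rectifiers and calcium-activated channels, hold the membrane negative and so limit calcium entry. Accessory subunits are not pores. They change the gating, the calcium sensitivity or the transport to the surface of the pore-forming subunits they bind.

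Smooth muscle markers were higher in the later groups. Of 11 measured smooth muscle markers, 8 were higher and 0 lower in RA48 than in Control, and 9 were higher and 0 lower in RA96 and in Puromycin than in Control. Over all genes with a symbol, 18.0% were higher and 16.4% lower in RA48 than in Control. The shares were 23.9% and 27.6% in RA96, and 24.6% and 28.6% in Puromycin. Acta2 was 4.56 ± 0.22 (log2 difference ± SE) higher in RA48 and 7.30 ± 0.21 higher in Puromycin than in Control, while Myh11, a myosin heavy chain of mature smooth muscle, differed by 0.19 ± 0.57 between Puromycin and Control and was not called. Some markers of other lineages were called too: in Puromycin against Control, 5 of 7 markers of extraembryonic endoderm, 4 of 6 endothelial, 4 of 11 cardiac and 1 of 10 neuronal markers were higher. 5 of 7 pluripotency, 2 of 10 neuronal, 1 of 11 cardiac, 1 of 6 endothelial and the only glial marker were lower, and no marker of skeletal muscle (5 measured) or blood (3) was called. These small counts stand beside the shares of all genes given above and were not tested against them. The mean over the 10 neuronal markers lay between -0.95 and -0.35 on the Puromycin arrays and between -1.11 and -0.61 on the Control arrays. In RNA from whole cultures, fewer cells of a type and less RNA per cell cannot be told apart, and the part of these other lineages in the channel results was not tested. The arrays also formed 2 sets with no name in the labels. They separated along the leading component of the variation within groups, which held 48.9% of it. Set 1 held 3 Control, 3 RA48, 2 RA96 and 3 Puromycin arrays, and set 2 held 3, 2, 4 and 3. Replicates 1 to 3 were in set 1 and higher replicate numbers in set 2, apart from RA96 replicate 2, which fell in set 2. For every call that was not also made within each set, the values of both sets are given with the gene. Those tests are optimistic, since the sets were drawn from the same values.

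Channel genes changed in both directions, most of them by less than 2-fold. In this text a gene is called higher or lower where its adjusted p is under 0.05 in limma's moderated test, adjusted with the Benjamini-Hochberg method over all rows of the array. In RA48 against Control, 14 of 41 genes (34.1%) were called, 7 higher and 7 lower, where 34.4% of all genes with a symbol were called (18.0% higher and 16.4% lower). From RA48 to RA96, 9 genes (22.0%) were called, 3 higher and 6 lower, beside 22.4% of all genes with a symbol (10.8% higher and 11.6% lower). Puromycin differed from RA96 in 1 channel gene (2.44%), which was lower, against 7.82% of all genes with a symbol (4.70% higher and 3.12% lower). RA96 differed from Control in 18 (43.9%), 9 each way, with 51.5% of all genes with a symbol called (23.9% higher and 27.6% lower). In Puromycin against Control 15 (36.6%) were called, 5 higher and 10 lower, and over all genes with a symbol the share was 53.2% (24.6% higher and 28.6% lower). Over all 4 groups the F test called 23 of 41 (56.1%), beside 60.8% of all genes with a symbol. The median difference of the 41 genes was -0.03 in Puromycin against Control and -0.06 over all genes with a symbol. Changes were mostly small: of the 14, 18 and 15 genes called against Control, only Kcnab1, Kcne1l and Cacna1d moved 2-fold or more in each comparison.

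**Figure D1:**
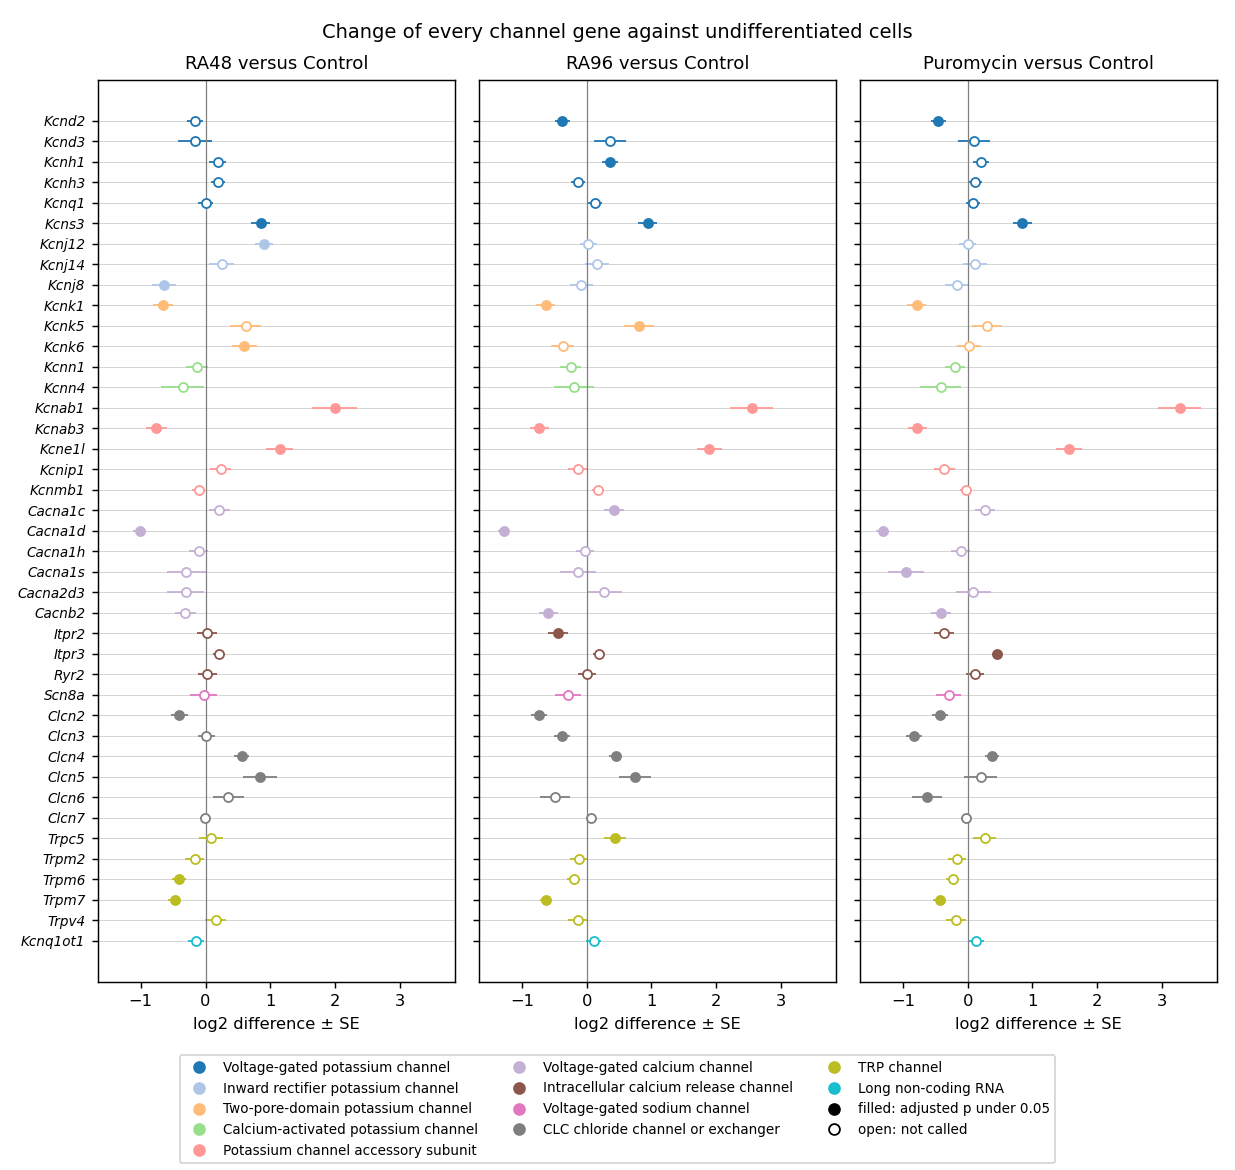
Log2 difference from Control, with its SE, for all 41 genes in RA48, RA96 and Puromycin, ordered and coloured by channel class. Filled points are called. Kcnab1 stands farthest to the right in all 3 panels, at 2.00, 2.55 and 3.27, and Cacna1d farthest to the left, at -1.01, -1.28 and -1.31.

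Several channel genes kept their direction over the protocol. Kcnab1, Kcne1l, Kcns3 and Clcn4 were higher than in Control in all 3 later groups, and Cacna1d, Clcn2, Kcnab3, Kcnk1 and Trpm7 were lower in all 3. These 3 comparisons share the Control arrays, so they do not stand for independent evidence of one another. Cacnb2, Clcn3 and Kcnd2 were lower in RA96 and in Puromycin but were not called at 48 h. Kcnj12 and Kcnk6 were higher at 48 h and lower again at 96 h, and Kcnj8 did the opposite. No gene had opposite calls in RA96 and Puromycin against Control. In all, 27 genes were called in at least 1 comparison and 14 in none. Among the 27, Cacna1c, Kcnh1, Kcnh3, Kcnmb1 and Trpc5 were not called by the F test over the 4 groups. The shares of all genes with a symbol that followed these patterns are not given, so these counts do not set channel genes apart. When group and array set together were taken as a random block, a setting that treats the arrays of a group and set as partly the same measurement, 16 of the 57 calls were kept. These were Kcne1l, Kcns3 and Cacna1d against Control at all 3 later stages, Kcnab1 in RA96 and Puromycin, Trpm7 in RA96, and Clcn3, Itpr3, Kcnab3 and Kcnk1 in Puromycin. With the array set as a fixed block none of the 57 calls was lost, and the counts became 16, 12, 5, 23 and 19 in the order of the comparisons above. This fit is optimistic as well, because the sets were drawn from the same within-group spread that the block takes out. The calls added were Cacnb2 and Kcnk5 in RA48 against Control, and Cacna1d, Kcnip1 and Trpc5 in RA96 against RA48. Cacna1s, Clcn5, Itpr3 and Kcnh3 were added in Puromycin against RA96, Clcn6, Itpr3, Kcnmb1, Kcnn1 and Kcnn4 in RA96 against Control, and Itpr2, Kcnip1, Kcnn4 and Trpm6 in Puromycin against Control.

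The largest rise among the channel genes was that of Kcnab1, which encodes the beta 1 subunit of Shaker-type voltage-gated potassium channels, a cytoplasmic partner that speeds their inactivation. Its log2 ratio lay between -1.38 and 0.32 in Control (median -0.03), was 2.09, 2.29, 2.20, 1.10 and 1.20 in RA48, and lay between 1.44 and 3.52 in RA96 (median 2.30) and between 2.72 and 3.37 in Puromycin (median 3.09). Every array of the 3 later groups was above every Control array. Kcnab1 was 2.00 ± 0.35 higher in RA48 than in Control, or 3.99-fold (adjusted p = 0.000116), 2.55 ± 0.33 higher in RA96, and 3.27 ± 0.33 higher in Puromycin, or 9.68-fold (adjusted p = 3.3e-08). The early rise differed between the array sets: it was 2.84 in set 1 and 0.94 in set 2, where it was not called (adjusted p = 0.205). In Puromycin it was 3.70 in set 1 and 2.85 in set 2, both called.

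Kcne1l, an X-linked gene of the KCNE family of small membrane-spanning subunits, which modify voltage-gated potassium channels, rose next most. It lay between -1.77 and -1.01 in Control (median -1.28), was 0.16, 0.15, 0.19, -0.76 and -0.70 in RA48, and lay between 0.13 and 1.12 in RA96 (median 0.46) and between -0.11 and 0.52 in Puromycin (median 0.25). The later groups did not overlap with Control, and the 2 low RA48 arrays were those of set 2. The difference from Control was 1.14 ± 0.21 in RA48 (2.21-fold, adjusted p = 0.000193), 1.90 ± 0.20 in RA96 (3.72-fold, adjusted p = 6.96e-08) and 1.56 ± 0.20 in Puromycin (2.95-fold, adjusted p = 1.09e-06). RA96 was also higher than RA48, by 0.75 ± 0.21 (adjusted p = 0.014). At 48 h the rise over Control was 1.68 in set 1 and 0.43 in set 2, called in both.

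The promoters of the genes that moved 2-fold or more are printed here to give the sequence around the starts of the genes on which the results turn. Each is the RefSeq window (GRCm38.p6) from 250 bases before to 50 bases after an annotated start, and all starts listed for Kcnab1, Kcne1l and Cacna1d are given, since the arrays do not tell which was used. Capitals mark GGGCGG, the core of the GC box bound by Sp-family factors, on either strand, with overlapping matches counted. The Kcnab1 windows are at chr3:64948962-64949261, chr3:65108764-65109063 and chr3:65187853-65188152 on the plus strand. The Kcne1l window is at chrX:142306149-142306448, and the Cacna1d windows at chr14:30353437-30353736 and chr14:30491107-30491406, on the minus strand.
Kcnab1 start 1: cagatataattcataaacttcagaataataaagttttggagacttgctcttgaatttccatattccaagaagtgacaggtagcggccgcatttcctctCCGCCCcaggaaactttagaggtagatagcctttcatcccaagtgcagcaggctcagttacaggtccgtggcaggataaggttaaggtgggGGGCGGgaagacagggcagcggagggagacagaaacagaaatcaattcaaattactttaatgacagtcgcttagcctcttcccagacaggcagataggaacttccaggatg
Kcnab1 start 2: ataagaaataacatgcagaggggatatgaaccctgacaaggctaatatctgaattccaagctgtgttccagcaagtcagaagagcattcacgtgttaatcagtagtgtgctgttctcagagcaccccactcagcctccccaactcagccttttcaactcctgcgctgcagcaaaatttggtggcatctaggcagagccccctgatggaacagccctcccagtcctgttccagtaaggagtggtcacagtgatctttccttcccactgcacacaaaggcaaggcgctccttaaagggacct
Kcnab1 start 3: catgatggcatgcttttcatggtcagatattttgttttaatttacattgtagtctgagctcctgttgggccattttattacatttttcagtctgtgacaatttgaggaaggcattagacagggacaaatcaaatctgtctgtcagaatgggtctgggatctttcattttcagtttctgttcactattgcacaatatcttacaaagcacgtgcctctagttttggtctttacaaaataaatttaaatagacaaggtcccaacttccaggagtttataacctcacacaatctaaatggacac
Kcne1l start 1: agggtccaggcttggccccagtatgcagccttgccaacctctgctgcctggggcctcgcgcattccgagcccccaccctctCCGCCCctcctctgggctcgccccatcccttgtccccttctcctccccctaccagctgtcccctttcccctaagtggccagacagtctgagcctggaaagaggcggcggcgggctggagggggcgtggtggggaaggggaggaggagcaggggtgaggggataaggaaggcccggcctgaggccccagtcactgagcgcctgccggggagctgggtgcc
Cacna1d start 1: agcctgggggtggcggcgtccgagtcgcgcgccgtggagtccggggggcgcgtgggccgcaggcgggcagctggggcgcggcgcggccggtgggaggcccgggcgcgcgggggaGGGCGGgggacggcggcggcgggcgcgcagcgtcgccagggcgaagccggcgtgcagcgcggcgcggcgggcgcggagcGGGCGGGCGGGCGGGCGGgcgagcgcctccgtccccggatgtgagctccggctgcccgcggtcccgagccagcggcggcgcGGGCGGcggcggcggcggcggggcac
Cacna1d start 2: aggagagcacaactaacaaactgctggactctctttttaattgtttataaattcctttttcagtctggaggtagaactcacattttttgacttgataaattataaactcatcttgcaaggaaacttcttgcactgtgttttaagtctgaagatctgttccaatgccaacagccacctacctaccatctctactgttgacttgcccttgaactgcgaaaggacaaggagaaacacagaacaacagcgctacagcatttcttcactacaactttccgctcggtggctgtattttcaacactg

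The window of Cacna1d start 1 is 87.3% G and C and holds 63 CpG pairs and 6 GGGCGG. The other Cacna1d window is 40.3% G and C and holds 4 CpG pairs and 0 GGGCGG. The first Kcnab1 window holds 2 GGGCGG and the Kcne1l window 1. This hexamer is common: 35.7% of all 32851 RefSeq windows of the same length hold it, and 26 of the 50 windows of the 35 channel genes with a window do. AGGTCA, the hexamer that nuclear receptors such as the retinoic acid receptors bind in pairs, was in none of these 6 windows, and in 4 of the 50 windows, against 16.3% of all windows. The CArG box, the site of serum response factor in smooth muscle promoters, was in none of the 50, against 1.63% of all windows. A match is a description of the letters, not a bound site, and its absence says only that the letters are not in this window.

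Of the other accessory subunits of potassium channels, Kcnab3 fell, Kcnip1 was not called against Control, and the probes of Kcnmb1 moved apart. Kcnab3 encodes the beta 3 partner of the Shaker-type channels. Its log2 ratio lay between 0.67 and 1.41 in Control (median 0.91), was 0.53, 0.57, 0.09, 0.18 and -0.11 in RA48, and lay between 0.02 and 0.54 in RA96 (median 0.25) and between -0.04 and 0.52 in Puromycin (median 0.24). All later arrays were below all Control arrays. It was 0.76 ± 0.16 below Control in RA48 (adjusted p = 0.000754) and 0.78 ± 0.15 below it in Puromycin.

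Kcnip1 encodes a calcium-binding partner of A-type potassium channels. It lay between -0.97 and -0.64 in Control (median -0.81), was -0.47, -0.66, -0.43, -0.64 and -0.69 in RA48, and lay between -1.38 and -0.68 in RA96 (median -0.79) and between -1.58 and -0.76 in Puromycin (median -1.18). The groups overlapped, and although the F test over the 4 groups called it (adjusted p = 0.0279), no pair of groups that was compared differed beyond the test. With the array set as a block Kcnip1 was lower in Puromycin than in Control (adjusted p = 0.0179), a difference that was called in set 1 (-0.72) and not in set 2 (adjusted p = 0.989).

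Kcnmb1, the beta 1 subunit that makes the large-conductance calcium-activated potassium channel of smooth muscle more sensitive to calcium, is a case in which the 2 probes went opposite ways. The gene mean was 0.29 ± 0.10 higher in RA96 than in RA48 (adjusted p = 0.0423) and differed by -0.03 between Puromycin and Control, which was not called. Probe 1 averaged -0.39 in Control, -0.69 in RA48, -1.02 in RA96 and -1.11 in Puromycin. Probe 2 averaged -0.15, -0.07, 0.84 and 0.51 in the same order. Taken singly, a setting added after the data were seen, probe 1 was lower by 0.72 in Puromycin than in Control (adjusted p = 0.000135) and probe 2 higher by 0.66 (adjusted p = 0.00241). Neither probe can be preferred from these files, so no direction is given for the gene. The call in RA96 against RA48, which rested on 0.25 in set 1 and 0.38 in set 2 with neither called, was lost without any 1 of RA48 replicates 2, 3, 4 and 5 or RA96 replicates 1, 2, 3 and 6, at adjusted p-values of up to 0.0963.

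**Figure D2:**
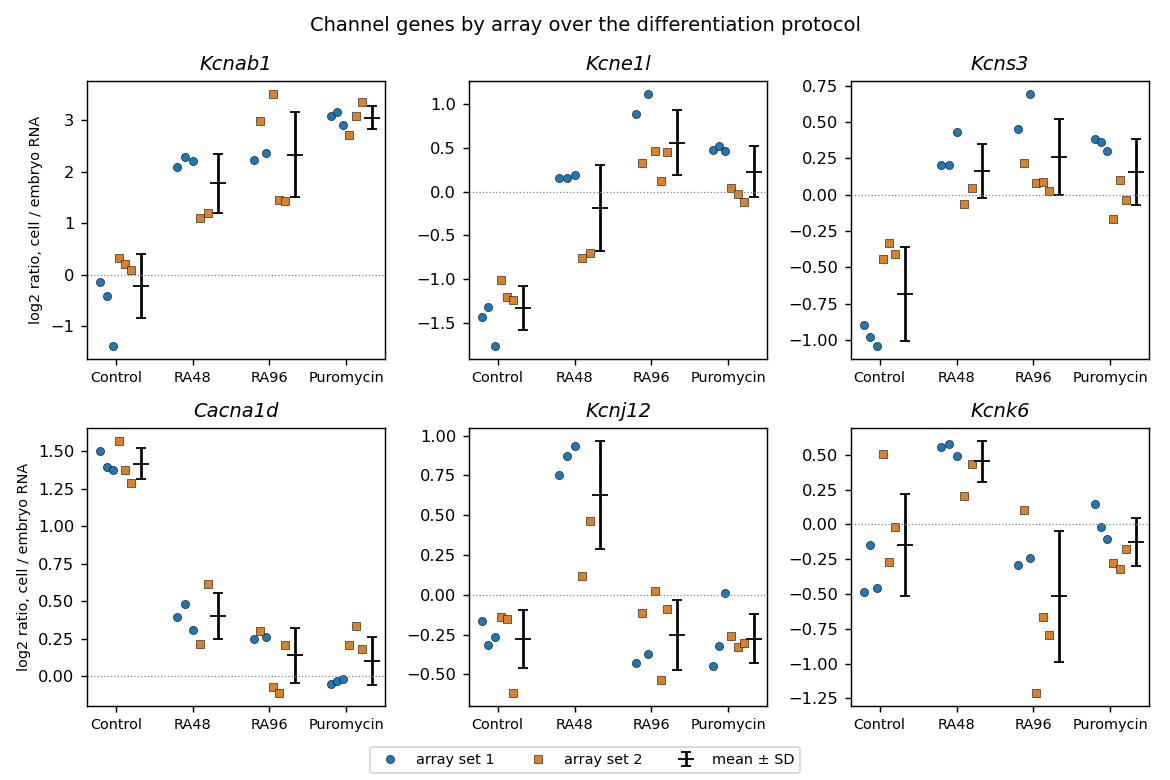
Log2 ratio of cell over embryo RNA on each array for Kcnab1, Kcne1l, Kcns3, Cacna1d, Kcnj12 and Kcnk6, with the mean and SD of each group. Circles are arrays of set 1 and squares arrays of set 2. Kcnab1, Kcne1l and Kcns3 stay above the Control arrays in all 3 later groups, Cacna1d stays below them, and Kcnj12 is high in RA48 alone, where its 5 arrays lie at 0.12 to 0.94.

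Among the genes grouped by name as voltage-gated potassium channels (Kcnd2, Kcnd3, Kcnh1, Kcnh3, Kcnq1 and Kcns3), the clearest change was a rise of Kcns3. It encodes an electrically silent subunit that forms no channel by itself and modifies delayed rectifier channels. Kcns3 lay between -1.04 and -0.33 in Control (median -0.67), was 0.20, 0.21, 0.43, -0.06 and 0.05 in RA48, and lay between 0.03 and 0.70 in RA96 (median 0.15) and between -0.16 and 0.38 in Puromycin (median 0.20). Control did not overlap with any later group. The difference from Control was 0.85 ± 0.15 in RA48 (adjusted p = 0.000185), 0.94 ± 0.15 in RA96 and 0.84 ± 0.15 in Puromycin, 1.79-fold to 1.92-fold. Its size depended on the array set, with 1.25, 1.55 and 1.32 in set 1 and 0.39, 0.50 and 0.36 in set 2, all called.

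Kcnd2, a pore subunit of the transient A-type current, was lower than Control by 0.38 ± 0.11 in RA96 (adjusted p = 0.00955) and by 0.45 ± 0.11 in Puromycin (adjusted p = 0.00242). In Puromycin the fall was 0.74 in set 1 and 0.17 in set 2, and it was not called in set 2. Kcnh1, of the ether-à-go-go family, was 0.37 ± 0.12 higher in RA96 than in Control (adjusted p = 0.0203). That call was lost without RA96 replicate 4 (adjusted p = 0.0578) or replicate 6, and probe 2 of the gene differed by 0.09 where probe 1 differed by 0.64. The difference was 0.16 in set 1, where it was not called, and 0.43 in set 2. Kcnh3, of the same family, was lower by 0.33 ± 0.11 in RA96 than in RA48 (adjusted p = 0.0419), a call lost without any 1 of RA48 replicates 1, 2 and 3 or RA96 replicates 2, 5 and 6, at up to 0.109. It was -0.21 in set 1 and -0.30 in set 2, called in neither. Kcnd3, the other A-type pore, and Kcnq1, the pore of the slow delayed rectifier of the heart, were called in no comparison.

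Inward rectifiers keep the resting potential negative. Kcnj12, a strong inward rectifier, was high at 48 h alone. Its log2 ratio lay between -0.62 and -0.14 in Control (median -0.22), was 0.75, 0.87, 0.94, 0.12 and 0.46 in RA48, and lay between -0.54 and 0.02 in RA96 (median -0.24) and between -0.45 and 0.01 in Puromycin (median -0.31). All 5 RA48 arrays were above all arrays of the other groups, and the other groups overlapped. RA48 was higher than Control by 0.90 ± 0.14, or 1.87-fold (adjusted p = 2.49e-05), and RA96 was lower than RA48 by 0.88 ± 0.14 (adjusted p = 0.000133). The second of these steps was -1.25 in set 1 and -0.47 in set 2, where it was not called (adjusted p = 0.112).

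Kcnj8, the pore of the ATP-sensitive potassium channel of vascular smooth muscle, was lower at 48 h and higher again at 96 h. It lay between -0.50 and 0.37 in Control (median -0.01), was -0.88, -1.06, -0.93, -0.31 and -0.30 in RA48, and lay between -0.65 and 0.25 in RA96 (median -0.10) and between -0.68 and 0.03 in Puromycin (median -0.13). RA48 overlapped with each of the other groups. RA48 was lower than Control by 0.64 ± 0.19 (adjusted p = 0.0142), and RA96 higher than RA48 by 0.56 ± 0.19 (adjusted p = 0.0418). The first was -0.59 in set 1 and -0.56 in set 2, where it was not called, and the second was 0.87 in set 1 and 0.15 in set 2, where it was not called (adjusted p = 0.657). Without RA48 replicate 2 the adjusted p over all arrays became 0.0503 and 0.127, and the second call was also lost without RA48 replicate 1 or 3 or any 1 of RA96 replicates 1 to 5. Kcnj14, the remaining inward rectifier, was called nowhere.

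All 3 tandem-pore potassium channels, which carry background or leak currents, were called by the F test over the 4 groups, which called 60.8% of all genes with a symbol, and they moved in different ways. Kcnk1 lay between 0.10 and 0.65 in Control (median 0.51), was -0.03, -0.03, -0.06, -0.59 and -0.53 in RA48, and lay between -0.50 and 0.23 in RA96 (median -0.33) and between -0.58 and -0.15 in Puromycin (median -0.36). RA48 and Puromycin lay wholly below Control, and RA96 overlapped with it. Kcnk1 was 0.66 ± 0.15 lower than Control in RA48 (adjusted p = 0.00205), 0.63 ± 0.15 lower in RA96 and 0.79 ± 0.15 lower in Puromycin (adjusted p = 0.000133). Taken singly, both probes were called lower in RA48 and in Puromycin. In RA96 probe 1 differed from Control by -0.34 and was not called (adjusted p = 0.0514). Probe 2 differed by -0.92 and was called (adjusted p = 0.000155).

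Kcnk5, an acid-sensitive leak channel, lay between -1.99 and -0.40 in Control (median -0.96), was -0.25, -0.68, -0.52, -0.48 and -0.22 in RA48, and lay between -0.72 and 0.35 in RA96 (median -0.17) and between -1.13 and -0.45 in Puromycin (median -0.73). It was called in RA96 against Control alone, 0.81 ± 0.23 higher (1.75-fold, adjusted p = 0.00702), with overlapping arrays. The difference in RA48 was 0.62 and was not called, but was called with the array set as a block (adjusted p = 0.00117), with 1.08 in set 1 and 0.19 in set 2.

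Kcnk6, a close relative of Kcnk1, lay between -0.49 and 0.50 in Control (median -0.21), was 0.55, 0.58, 0.49, 0.21 and 0.43 in RA48, and lay between -1.21 and 0.11 in RA96 (median -0.48) and between -0.32 and 0.14 in Puromycin (median -0.14). RA48 lay wholly above RA96 and overlapped with Control. It was 0.60 ± 0.19 higher in RA48 than in Control (adjusted p = 0.0219) and lower by 0.97 ± 0.19 in RA96 than in RA48 (adjusted p = 0.00122). The early rise was 0.91 in set 1 and 0.25 in set 2, where it was not called, and was lost without Control replicate 1 (adjusted p = 0.053), Control replicate 3 or RA48 replicate 2. The later fall was -0.81 in set 1 and -0.96 in set 2, where it was not called (adjusted p = 0.0674).

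The calcium-activated channels Kcnn1 and Kcnn4 were called in no comparison without the array set in the fit. With the set as a block, Kcnn4, the intermediate-conductance channel, was lower than Control in RA96 (-0.36, adjusted p = 0.00716) and in Puromycin (-0.42, adjusted p = 0.0022). Its difference in Puromycin was -0.43 in set 1 and -0.41 in set 2, called in both. Kcnn1, a small-conductance channel, was then lower in RA96 (-0.31, adjusted p = 0.0239), with -0.61 in set 1 and -0.09 in set 2.

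Of the 6 genes of voltage-gated calcium channels, 4 code for pores (Cacna1c, Cacna1d, Cacna1h and Cacna1s) and the others for accessory subunits (Cacna2d3 and Cacnb2). Cacna1d, the pore of a low-threshold L-type channel of neurons, endocrine cells and the sinus node, fell most. Its log2 ratio lay between 1.29 and 1.57 in Control (median 1.39), was 0.40, 0.48, 0.31, 0.22 and 0.61 in RA48, and lay between -0.11 and 0.31 in RA96 (median 0.23) and between -0.05 and 0.34 in Puromycin (median 0.08). No later array reached the Control arrays. Against Control the difference was -1.01 ± 0.10 in RA48 (2.02-fold lower, adjusted p = 4.8e-08), -1.28 ± 0.09 in RA96 (adjusted p = 2.77e-10) and -1.31 ± 0.09 in Puromycin (2.48-fold lower, adjusted p = 1.29e-10). The sets gave like values, -1.17 in set 1 and -1.33 in set 2 in RA96 and -1.46 and -1.17 in Puromycin. Most of the fall came from probe 2, whose difference was -1.86, -2.20 and -2.06 in the 3 comparisons, while that of probe 1 was -0.17, -0.35 and -0.56, called in Puromycin alone (adjusted p = 0.00592).

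Cacna1c, the L-type pore through which most calcium enters smooth muscle, had log2 ratios between -0.13 and 0.47 in Control (median -0.07) and of 0.16, -0.06, 0.29, 0.25 and 0.44 in RA48. They lay between -0.05 and 0.80 in RA96 (median 0.47) and between -0.05 and 0.62 in Puromycin (median 0.28). All groups overlapped. It was called in RA96 against Control alone, 0.42 ± 0.15 higher (1.34-fold, adjusted p = 0.0298), and the F test did not call it. The difference was 0.74 in set 2 and -0.11 in set 1 (adjusted p = 0.599), and the call was lost without any 1 of Control replicates 1, 3, 4 and 5 or RA96 replicates 2, 5 and 6, at up to 0.0818.

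Cacna1s, the L-type pore of skeletal muscle, was lower in Puromycin. It lay between -1.23 and -0.53 in Control (median -0.63), was -0.85, -0.88, -0.92, -1.47 and -1.38 in RA48, and lay between -1.57 and -0.42 in RA96 (median -0.85) and between -2.57 and -1.06 in Puromycin (median -1.66). Puromycin overlapped with each of the other groups. The difference from Control was -0.95 ± 0.28 in Puromycin (1.94-fold lower, adjusted p = 0.00825), with -1.45 in set 1 and -0.46 in set 2. The difference between Puromycin and RA96 was -0.82 and was not called. Between RA96 and RA48 the sets pointed opposite ways, with -0.66 in set 1 and 0.79 in set 2, both called, and the gene was not called over all arrays.

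Cacnb2, the beta 2 subunit that brings L-type pores to the membrane, lay between -0.45 and 0.39 in Control (median -0.13), was -0.11, -0.29, -0.10, -0.90 and -0.78 in RA48, and lay between -0.97 and -0.44 in RA96 (median -0.71) and between -0.67 and -0.36 in Puromycin (median -0.57). The later groups overlapped with Control. It was 0.59 ± 0.15 lower than Control in RA96 (adjusted p = 0.00313) and 0.41 ± 0.15 lower in Puromycin (adjusted p = 0.0297). The second call was lost without any 1 of Control replicates 2 and 3 or Puromycin replicates 4, 5 and 6, at up to 0.0886. Cacna1h, a T-type pore, and Cacna2d3, an alpha 2 delta subunit, were called in no comparison.

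The channels that release calcium from internal stores changed little. Itpr3, a receptor for inositol trisphosphate, was 0.46 ± 0.09 higher in Puromycin than in Control (1.37-fold, adjusted p = 0.000188), with arrays at -0.23 to 0.22 in Puromycin and -0.73 to -0.28 in Control that did not overlap. The rise was 0.75 in set 1 and 0.17 in set 2, where it was not called. Itpr2, the type 2 receptor, lay between -0.71 and 0.40 in Control (median -0.21), was 0.13, 0.02, 0.21, -0.61 and -0.55 in RA48, and lay between -0.70 and -0.53 in RA96 (median -0.62) and between -0.69 and -0.41 in Puromycin (median -0.56).

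The RA96 and Puromycin arrays of Itpr2 thus lay close together, at the level of the low arrays of the earlier groups, and all groups overlapped with Control. Itpr2 was lower in RA96 than in RA48 by 0.47 ± 0.16 (adjusted p = 0.0421) and than in Control by 0.44 ± 0.15 (adjusted p = 0.0202). The difference from RA48 was -0.75 in set 1 and -0.05 in set 2. It was lost without any 1 of RA48 replicates 1, 2 and 3 or of the 6 RA96 arrays, at up to 0.14, and the difference from Control was lost without Control replicate 3 (adjusted p = 0.0625). The difference from Control was -0.71 in set 1 and -0.18 in set 2, where it was not called. Taken singly, neither of the 2 Itpr2 probes was called in RA96 against RA48 (adjusted p = 0.0919 and 0.0536). In RA96 against Control probe 1 differed by -0.46 and was not called (adjusted p = 0.163), and probe 2 differed by -0.43 and was called (adjusted p = 0.000537). Ryr2, the ryanodine receptor of heart and smooth muscle, averaged -0.37 in Control, -0.35 in RA48, -0.37 in RA96 and -0.25 in Puromycin and was called nowhere. Scn8a, the only voltage-gated sodium channel measured, averaged 0.58, 0.55, 0.29 and 0.28 in the same order and was not called over all arrays. The Puromycin mean joins 2 separate clusters, at -0.28, -0.33 and -0.22 on the set 1 arrays and at 0.92, 0.73 and 0.86 on the set 2 arrays. Puromycin accordingly differed from Control by -0.95 in set 1 (adjusted p = 0.000731) and by 0.36 in set 2 (adjusted p = 0.0063), so no direction is given for Scn8a.

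The CLC family includes a plasma membrane chloride channel, Clcn2, and chloride-proton exchangers of endosomes and lysosomes, Clcn3 to Clcn7. The F test called 5 of the 6, all but Clcn7, beside 60.8% of all genes with a symbol, and their directions differed. Clcn2 lay between -0.13 and 0.32 in Control (median 0.07), was -0.39, -0.44, -0.16, -0.26 and -0.33 in RA48, and lay between -0.83 and -0.23 in RA96 (median -0.80) and between -0.64 and 0.06 in Puromycin (median -0.31). RA48 and RA96 lay wholly below Control, and Puromycin overlapped with it. Clcn2 was 0.40 ± 0.13 lower than Control in RA48 (adjusted p = 0.0246), 0.74 ± 0.12 lower in RA96 (adjusted p = 4.95e-05) and 0.42 ± 0.12 lower in Puromycin (adjusted p = 0.00848). The call in RA48 was lost without any 1 of Control replicates 3 and 5 or RA48 replicates 1 and 2, at up to 0.062, and was -0.35 in set 1 and -0.45 in set 2, where it was not called. The fall in Puromycin was 0.17 in set 1, where it was not called, and 0.67 in set 2.

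Clcn3, an exchanger of endosomes and synaptic vesicles, was the only channel gene called between Puromycin and RA96. It lay between -0.15 and 0.18 in Control (median 0.10), was 0.10, 0.27, 0.20, -0.09 and -0.04 in RA48, and lay between -0.55 and -0.01 in RA96 (median -0.37) and between -1.04 and -0.37 in Puromycin (median -0.75). Puromycin lay wholly below Control and overlapped with RA96. In Puromycin it was 0.82 ± 0.12 lower than in Control (1.77-fold lower, adjusted p = 1.1e-05) and 0.45 ± 0.12 lower than in RA96 (adjusted p = 0.0343). The difference from RA96 was -0.48 in set 1 and -0.56 in set 2, called in both, but was lost without any 1 of RA96 replicates 1, 3 and 4 or Puromycin replicates 4, 5 and 6, at up to 0.0796. RA96 was lower than Control by 0.37 ± 0.12 (adjusted p = 0.0168) and than RA48 by 0.39 ± 0.13 (adjusted p = 0.0386), the second of these lost without any 1 of RA48 replicates 1, 2 and 3 or RA96 replicates 2, 4, 5 and 6, at up to 0.108. Neither was called in set 1: the difference from Control was -0.18 in set 1 and -0.43 in set 2, and that from RA48 was -0.21 and -0.37.

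Clcn4, an intracellular exchanger, was higher than Control in every later group. It lay between -1.04 and -0.65 in Control (median -0.81), was -0.43, -0.33, -0.34, -0.10 and -0.18 in RA48, and lay between -0.68 and -0.17 in RA96 (median -0.40) and between -0.70 and -0.16 in Puromycin (median -0.45). RA48 lay wholly above Control, and RA96 and Puromycin each overlapped with it at 1 end. The differences were 0.56 ± 0.11 in RA48 (adjusted p = 0.000463), 0.45 ± 0.10 in RA96 and 0.38 ± 0.10 in Puromycin (adjusted p = 0.00539), and each was called in both sets.

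Clcn5, the exchanger of endosomes in kidney tubule cells, and Clcn6, a late endosomal exchanger, spread widely within groups. Clcn5 lay between -0.21 and 1.04 in Control (median 0.29), was 1.72, 1.65, 1.65, 0.33 and 0.53 in RA48, and lay between 0.76 and 1.45 in RA96 (median 1.05) and between 0.15 and 0.90 in Puromycin (median 0.58). The 2 low RA48 arrays were those of set 2, and on average set 1 arrays were 0.72 above set 2 arrays of the same group. Clcn5 was 0.84 ± 0.26 higher in RA48 (adjusted p = 0.0188) and 0.75 ± 0.25 higher in RA96 (adjusted p = 0.0169) than in Control, with 0.89 and 0.54 in the 2 sets at 48 h. The call in RA48 was lost without RA48 replicate 1, 2 or 3, at up to 0.0647.

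Clcn6 lay between 0.60 and 1.43 in Control (median 0.91), was 1.75, 1.71, 1.72, 0.51 and 0.88 in RA48, and lay between -0.09 and 1.05 in RA96 (median 0.45) and between -0.10 and 0.79 in Puromycin (median 0.34). Again set 1 arrays were higher, by 0.70, and the groups overlapped. RA96 was 0.83 ± 0.24 lower than RA48 (adjusted p = 0.0189), and Puromycin was 0.63 ± 0.23 lower than Control (adjusted p = 0.0291). The first was lost without RA48 replicate 1, 2 or 3, at up to 0.0661, and the second without any 1 of Control replicates 1, 2 and 3 or Puromycin replicates 4, 5 and 6, at up to 0.0722. In RA96 against RA48 the difference was -0.88 in set 1 and -0.40 in set 2, where it was not called (adjusted p = 0.145), and in Puromycin against Control it was -0.61 and -0.66, both called. Clcn7, the lysosomal exchanger, averaged -0.66 in Control and between -0.69 and -0.60 in the later groups.

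**Figure D3:**
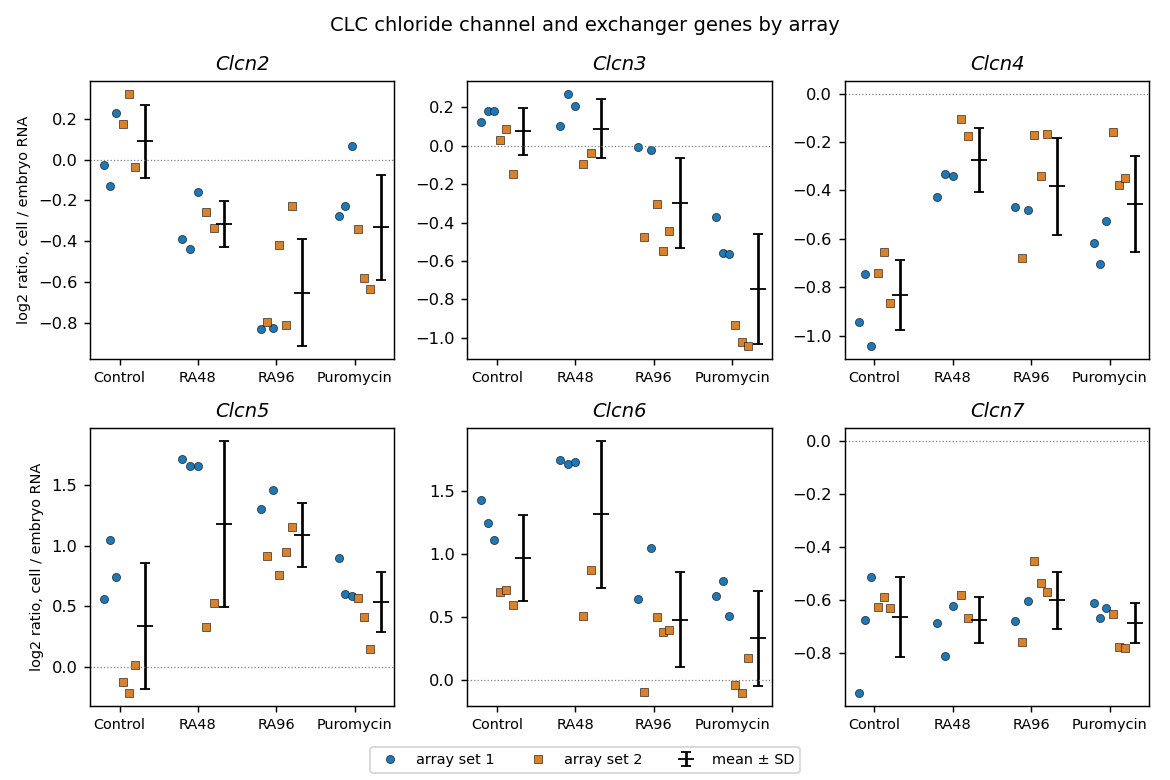
Log2 ratio of cell over embryo RNA on each array for the 6 CLC genes, with the mean and SD of each group. Circles are arrays of set 1 and squares arrays of set 2. Clcn3 is lowest in Puromycin, at -1.04 to -0.37, Clcn4 is higher in the later groups than in Control, and Clcn5 and Clcn6 separate by array set within groups.

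TRP channels are cation channels opened by receptors, temperature, stretch or ligands. Trpm7 and Trpm6 are magnesium-permeable channels fused to a kinase, and both were lower in RA48 than in Control. Trpm7 lay between 0.27 and 0.76 in Control (median 0.40), was -0.07, 0.03, 0.02, -0.28 and 0.13 in RA48, and lay between -0.33 and 0.03 in RA96 (median -0.20) and between -0.16 and 0.15 in Puromycin (median 0.03). No later array reached the Control arrays. It was 0.47 ± 0.10 lower than Control in RA48 (adjusted p = 0.000875), 0.63 ± 0.09 lower in RA96 (adjusted p = 1.38e-05) and 0.43 ± 0.09 lower in Puromycin (adjusted p = 0.000757). The 2 probes parted in Puromycin: the difference from Control was -0.76 for probe 1 and -0.11 for probe 2 (adjusted p = 0.314), and probe 2 was 0.40 higher in Puromycin than in RA96 (adjusted p = 0.00606).

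Trpm6 was 0.41 ± 0.11 lower in RA48 than in Control (adjusted p = 0.0052) and was not called later. It was the only channel gene above 0 on all 23 arrays. Trpc5, a receptor-operated channel of neurons, was 0.44 ± 0.17 higher in RA96 than in Control (adjusted p = 0.0432), a call lost without any 1 of Control replicates 1, 2, 4, 5 and 6 or RA96 replicates 1, 2, 3 and 5, at up to 0.108. The F test did not call Trpc5 (adjusted p = 0.14). Trpm2 and Trpv4 were called in no comparison, and Trpv4, a stretch and osmotic sensor, averaged -2.25 in Control, -2.10 in RA48, -2.39 in RA96 and -2.43 in Puromycin.

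Kcnq1ot1, the long non-coding RNA transcribed against Kcnq1 from the paternal allele, had 6 probes that disagreed, so its mean is no guide to it. The mean was called in no comparison. Against Control, probe 3 was lower by 0.97 in RA96 (adjusted p = 8.44e-05) and 0.78 in Puromycin, while probe 4 was higher by 0.57 and 0.76 and probe 6 by 0.66 and 0.67 (adjusted p = 0.00208 and 0.00254 in Puromycin). Probes 1, 2 and 5 were called in neither comparison.

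**Figure D4:**
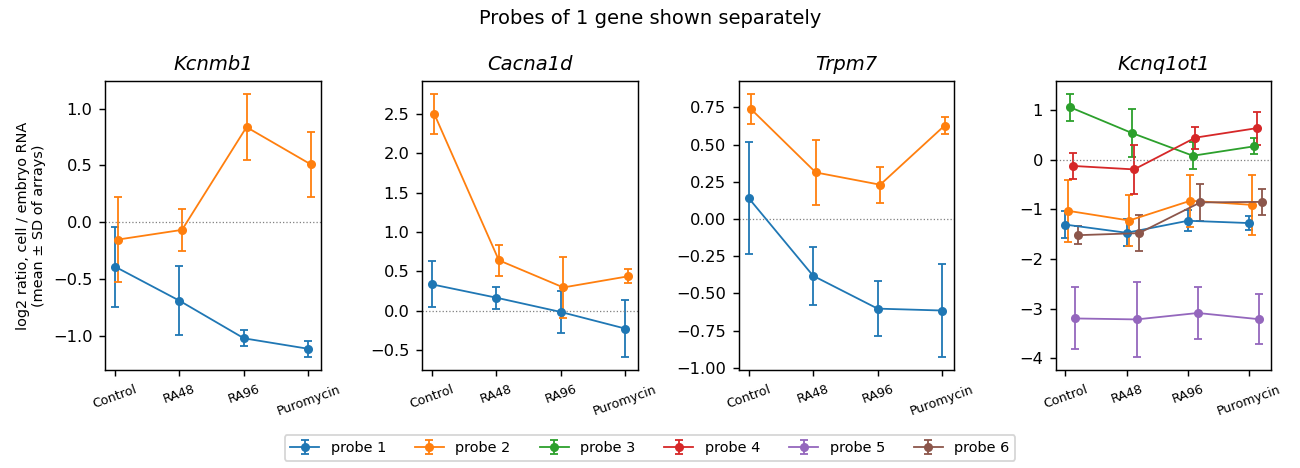
Mean and SD over arrays of the log2 ratio of each probe of Kcnmb1, Cacna1d, Trpm7 and Kcnq1ot1 in Control, RA48, RA96 and Puromycin. The 2 probes of Kcnmb1 move apart after RA48, probe 2 of Cacna1d falls more than probe 1, and the probes of Kcnq1ot1 move in both directions.

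Set against the embryo pool, with the direction as read from the dyes, the arrays of many channel genes lay on both sides of 0. In Control, 7 of the 41 genes were above 0 on all arrays, 23 below 0 on all arrays and 11 on both sides. With the ratio turned the other way, the counts above and below would change places, here and in the other groups. The counts above, below and on both sides were 8, 21 and 12 in RA48, 7, 20 and 14 in RA96, and 3, 19 and 19 in Puromycin. The matching shares of all genes with a symbol are not given, so these counts do not set channel genes apart. Over all 23 arrays, 13 genes stayed below the pool, among them Cacna1h, Cacna1s, Cacna2d3, Kcnd2, Kcnd3, Kcnn1, Kcnn4 and Trpv4. Kcnab1 crossed it: its Control arrays lay on both sides of 0, and all arrays of the later groups were above 0.

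Other genes of ion handling moved in both directions. Over all genes with a symbol, 34.4% were called in RA48 against Control and 53.2% in Puromycin against Control, and the small counts here stand beside those shares. Of 4 measured sodium pump genes, 1 was higher and 2 lower in RA48 than in Control, and 0 were higher and 3 lower in Puromycin. Atp1b1 and Atp1b2, beta subunits of the sodium pump, were lower by 0.77 ± 0.11 and 1.21 ± 0.12 in Puromycin. Of 5 calcium pumps and exchangers, only Atp2b1, the plasma membrane calcium pump, was called, 1.21 ± 0.08 higher in RA48 and 1.11 ± 0.07 higher in Puromycin than in Control. Among 8 store proteins, 2 were higher and 1 lower in both comparisons: Stim2, the calcium sensor of the store, was 0.81 ± 0.09 higher in Puromycin, Selenon 1.31 ± 0.12 higher, and Jph1, which couples store and surface membrane in skeletal muscle, was lower by 1.27 ± 0.07. Of 12 calcium sensors and effectors, 4 were higher and 0 lower in RA48 than in Control, and 4 higher and 1 lower in Puromycin. Camk2d, a calmodulin-dependent kinase, was 1.04 ± 0.06 higher in Puromycin and Plcd1, a phospholipase C, lower by 0.46 ± 0.12.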

How the data were processed

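The 23 arrays compared A404 RNA, labelled with Cy5, with whole-embryo RNA, labelled with Cy3, without a dye swap, on Agilent oligonucleotide arrays read with an Agilent G2565AA scanner and Agilent Feature Extraction, per the labels' protocols and the submitters' processing notes. The deposited table holds 1 log ratio per probe and array, which was read as log10 because of its range. The base, any centring and the direction are not given in the sources used here. The direction was taken from the dyes, and values were divided by 0.301 (log10 of 2). Folds rest on that base and p-values do not. Array medians lay between -0.07 and 0.03, and no normalization between arrays was added. Intensities were not used here, so no detection limit is given, and the number of arrays limits the precision.

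Of 21446 rows, 1166 with no gene and with values of 6 or fewer significant digits throughout were left out as control-like. Probes of a gene were averaged, which gave 17863 rows, 8683 of them genes, and no filter on low values was applied, so all 41 channel genes were tested. Group means were fitted over all 23 arrays with limma 3.58.1 in R 4.3.3, with Benjamini-Hochberg adjustment over all rows per comparison, and the fit was tested on simulated data. The simulated arrays had independent noise and no array sets, so that test does not cover the dependence between arrays. Per-array values are given for the 20 genes with the widest range of group means among those called by the F test, and also for Cacna1c, the L-type pore of smooth muscle, and Scn8a in Puromycin, both added after their values were seen. All called channel genes are named, and other ion-handling and marker genes come from written lists. The genes, lists, settings and array sets were chosen with earlier results of these data known.

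Group means were subtracted, and the sign of each array on the leading principal component of what remained gave its array set. Arrays of a group correlated at 0.834 to 0.976 within a set and at 0.705 to 0.851 between sets. Same-numbered replicates deviated together in RA48 and Control (5 pairs, r from 0.37 to 0.52) and in Puromycin and Control (6 pairs, r from 0.30 to 0.49). In the other comparisons 1 pair did not. Same-numbered arrays shared an array set, apart from RA96 replicate 2, so pairing by number and sharing a set cannot be told apart here. Promoter windows and gene names came from RefSeq (GRCm38.p6), and all 41 symbols matched. Python 3.11.15, numpy 2.4.6, pandas 2.3.3 and matplotlib 3.10.9 were used for the tables and figures, and statmod 1.5.0 for the random block.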

Additional observations from a re-analysis of the deposited data

Results flagged for a closer look

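Across 20 channel genes and 4 groups, 80 groups of arrays were screened for a single array far from the others, and 1 was found. Kcnj12 had a log2 ratio of -0.617 on Control replicate 6, below the -0.317 of the next lowest Control array and the -0.139 of the highest. Its gap was 0.628 of the range of the group, just over the limit of 0.625. About 1 in 20 groups passes this limit by chance.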

How the results depend on the processing

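With the replicate number of the labels as a block, which the array sets followed apart from RA96 replicate 2, no call was lost. The counts of called channel genes were then 16 in RA48 against Control, 11 in RA96 against RA48, 19 in RA96 against Control, 19 in Puromycin against Control and 26 in the F test, and 3 in place of 1 in Puromycin against RA96. The 57 calls kept their direction under every setting apart from 2: Cacna1c in RA96 against Control was -0.11 in set 1 alone, and Kcnmb1 in RA96 against RA48 was -0.33 with probe 1 alone. All 57 also remained called with median-centred arrays, the median of the probes, the array set as a block, trended and robust variance, control-like rows kept, or only rows with a gene symbol. Quantile normalization and array weights each lost 4 of 57, only the groups compared lost 10, set 1 alone 7, set 2 alone 14 and the random block 41. Of the 13 calls of genes with more than 1 probe, 7 were kept with probe 1 alone and 10 with probe 2 alone. With the random block the counts were 3, 0, 0, 5 and 8 in the order RA48 against Control, RA96 against RA48, Puromycin against RA96, RA96 against Control and Puromycin against Control, and 6 in the F test. Changes of at least 2-fold numbered 3, 0, 0, 3 and 3. Array weights, whose estimate did not converge fully, gave 24 in RA48 against Control, 23 in RA96 against RA48 and 4 in Puromycin against RA96. RA96 against RA48 had 3 calls with only the groups compared, 14 in set 1, 5 in set 2 and 2 at an adjusted p under 0.01. Puromycin against RA96 had 5 with the set as a block, 8 in set 1, 6 in set 2, 2 with only rows with a gene symbol and 0 at an adjusted p under 0.01. The F test called 15 at an adjusted p under 0.01. Leaving out each array in turn gave 10 to 15, 3 to 12, 0 to 1, 16 to 18 and 13 to 16 calls in the same order of comparisons, and 21 to 26 in the F test. The count for RA96 against RA48 was lowest, 3, without RA48 replicate 2 or 3, and was 4 without RA48 replicate 1 or RA96 replicate 2 and 5 without RA96 replicate 5. For Puromycin against RA96 it was 0 without RA96 replicate 1, 3 or 4 or Puromycin replicate 4 or 6. The cause of these differences was not tested. Shares over all genes with a symbol are not given under these settings, so these counts do not compare channel genes with the rest of the array.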

Other observations

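Some channels that the name rule does not cover, and some gap junction proteins, were called, beside 34.4% of all genes with a symbol in RA48 against Control and 53.2% in Puromycin against Control. Of 15 such channels measured, 3 were higher and 1 lower in RA48 than in Control, and 5 were higher and 1 lower in Puromycin. Ano6, a calcium-activated lipid scramblase and ion channel, was 1.25 ± 0.07 (log2 difference ± SE) higher in Puromycin than in Control, and Clic4, a chloride intracellular channel protein, was 0.96 ± 0.12 higher. Piezo1, a channel opened by membrane stretch, was 0.93 ± 0.11 higher in RA48. Vdac1, the anion channel of the outer mitochondrial membrane, differed by -0.30 ± 0.12 in Puromycin. Of 7 gap junction genes, 1 was higher and 0 lower in RA48, and 0 were higher and 1 lower in Puromycin. Gja1, the connexin of many smooth muscle and epithelial cells, differed from Control by -1.39 ± 0.21 in Puromycin, and Gjb5 by 1.64 ± 0.46 in RA48.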
